A study of Homo sapiens with 8 samples.

Results

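Mitochondrial ribosomal proteins are the nuclear-encoded proteins of the ribosome that works inside mitochondria. Their genes were chosen by name: every row of the count table whose symbol was MRPL or MRPS followed by a number, with an optional letter A to C. The rule used no measured value and found 78 genes among the 30434 in the table. All 78 passed the filter on low counts, which left 16430 genes for testing, and the members averaged between 312 and 5511 counts per library. By the structure of the mammalian mitochondrial ribosome, 51 of them belong to the large subunit and 26 to the small one. MRPS30 and MRPS18A were placed with the large subunit despite their names. MRPS36, now known as a component of the 2-oxoglutarate dehydrogenase complex, was placed in neither subunit.

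The study used SKBR3, an established human breast cancer cell line with amplified ERBB2. It compared 4 control libraries, whose genotype the labels give as WT, with 4 libraries of FOXA1 knockdown cells. FOXA1 is a forkhead transcription factor of luminal breast cells. The knockdown cells were a stable line made with lentiviruses carrying 3 individual short hairpin RNAs against FOXA1, and both groups grew in the same serum-containing medium. The labels do not say whether the controls carried a control vector, whether replicates were separate cultures, or whether the knockdown line was a clone. The p-values therefore measure only the spread between these libraries, which may be technical.

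The mitochondrial ribosome makes the few proteins encoded by mitochondrial DNA, all of them subunits of the oxidative phosphorylation complexes. Its rRNAs are transcribed in the mitochondrion, whereas every protein is encoded in the nucleus, made in the cytosol and imported. The small subunit binds the mRNA and decodes it, and the large subunit joins the amino acids. Many of the proteins have bacterial counterparts, and others are specific to mitochondria.

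The libraries held between 19087878 and 23786684 counts. FOXA1 itself stood at 192 ± 1.65 CPM (counts scaled to a common library total) in control and 3.96 ± 0.340 CPM in knockdown libraries (mean ± SD, n = 4 each), which was 2.06% of the control level. Epithelial markers (KRT8, KRT18, KRT19, EPCAM, ERBB2 and TFAP2A) summed to 16292 to 18163 CPM in control and 10977 to 11848 CPM in knockdown libraries. Of these 6, ERBB2 and KRT19 fell, to 18.3% and 27.3% of the control level, and the other 4 rose. The sums were 5.27 to 6.98 and 10.8 to 11.9 CPM for 5 fibroblast markers, 20.7 to 22.1 and 19.8 to 22.4 CPM for 4 endothelial markers, and 1.14 to 1.77 and 1.34 to 1.80 CPM for 4 immune markers. No marker was at 0 in every library, and the part of other cell types in the results was not tested. Control replicate 3 stood apart from the other libraries. It lay at -40.1 on the second principal component of log2 CPM, which carried 1.82% of the variance, against 9.53 to 16.3 for the other controls.

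Mitochondrial ribosomal protein genes that changed after FOXA1 knockdown did so in both directions. Of the 78 genes, 36 were higher, 32 were lower and 10 did not pass the threshold, an adjusted p under 0.05 from edgeR's quasi-likelihood test. The background was high: 77.1% of all genes tested passed the same threshold, with 39.4% higher and 37.7% lower. Among the 8711 tested genes with at least the mean count of the lowest member, 84.5% passed it, with 40.8% higher and 43.7% lower. The 87.2% of members that passed was near that share. None of the 78 changed by 2-fold or more with TMM scaling, whereas 28.3% of all genes tested and 17% of the genes at the members' count levels both passed the threshold and changed by at least that much. The largest, MRPL27 and MRPS6, rose 1.899-fold and 1.893-fold. With library totals alone in place of TMM factors their log2 fold changes were 1.01 and 1.00, just past 2-fold. Without control replicate 3, 37 members were higher and 29 lower.

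The log2 fold changes of the members ran from -0.55 to 0.92, with a median of 0.05 and quartiles of -0.28 and 0.24. Over all genes tested the median was 0.02 and the quartiles were -0.50 and 0.53. The SD of the log2 fold change was 0.35 across the members, 1.97 across all genes tested and 1.41 across the genes at the members' count levels. In 61 members (78.2%) the CPM of the control and knockdown libraries did not overlap, beside 72% of all genes tested and 80% of those at the members' count levels. In bulk RNA, fewer cells expressing a gene and less of its RNA per cell cannot be told apart, so these are levels averaged over each culture.

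**Figure D1:**
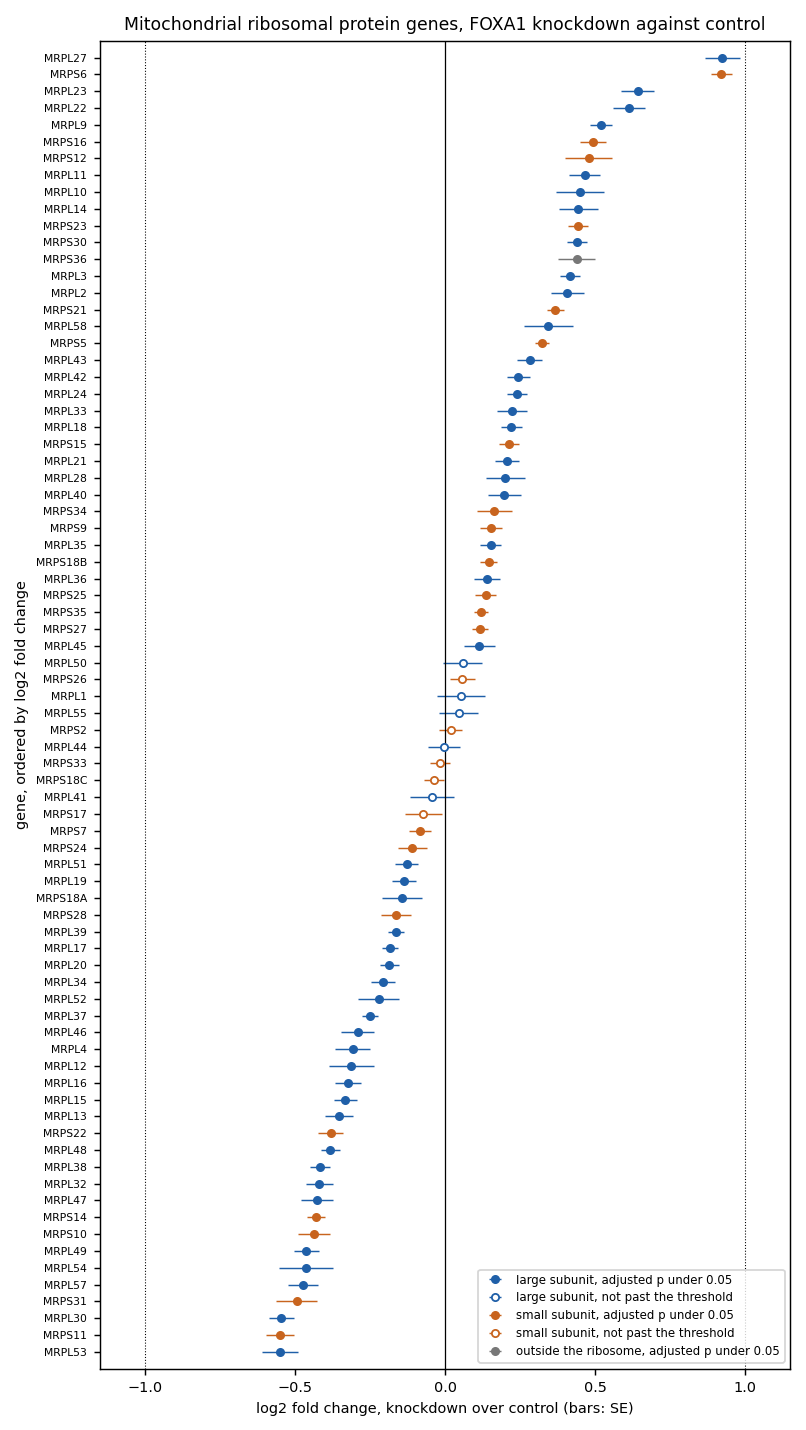
Log2 fold change of each of the 78 genes, knockdown over control, with its SE from 4 libraries per group; filled points passed the threshold, open points did not, and colours mark the subunit. Large and small subunit genes are spread over both sides of 0, and all 78 points lie between the dotted lines at a 2-fold change.

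Large and small subunit genes did not share one direction. Of the 51 large subunit genes, 22 were higher, 24 lower and 5 not past the threshold, with a median log2 fold change of -0.00. Of the 26 small subunit genes, 13 were higher, 8 lower and 5 not past it, with a median of 0.09. As shares, 43.1% of large subunit genes were higher and 47.1% lower, and 50% and 30.8% of small subunit genes. Among tested genes at the members' count levels these shares were 40.8% and 43.7%. The subunit splits depended on the scaling: with library totals alone in place of TMM factors, 15 small subunit genes were higher and 5 lower. With each gene's regional shift (defined further on) removed, 24 large subunit genes were higher and 16 lower. Subtracting that shift put the median at 0.08 in the large and 0.07 in the small subunit. Among large subunit genes with a bacterial counterpart, 16 of 30 were higher and 12 lower, with a median of 0.14. Among large subunit genes specific to mitochondria, 6 of 21 were higher and 12 lower, with a median of -0.14, and with library totals alone 7 were higher and 9 lower. Small subunit genes with a bacterial counterpart gave 7 higher and 6 lower of 16 (8 and 3 with library totals alone), and those specific to mitochondria gave 6 higher and 2 lower of 10. Their medians were -0.01 and 0.12. These class medians depended on the regional shift. With it subtracted they were 0.17 and -0.01 in the small subunit, the reverse order. In the large subunit they were then 0.11 with a bacterial counterpart and -0.03 for genes specific to mitochondria. MRPS36, the gene outside the ribosome, rose from 26.8 ± 1.37 to 36.4 ± 2.49 CPM (SD, n = 4; log2 fold change 0.44).

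The largest rise was that of MRPL27 (ENSG00000108826.16), the counterpart of a bacterial large subunit protein that lies beside the peptidyl transferase centre, where peptide bonds form. It read 21.0, 21.1, 22.8 and 22.4 CPM in control replicates 1 to 4 and 41.4, 39.2, 45.6 and 39.7 CPM in knockdown replicates 1 to 4. Every knockdown library lay above every control. The log2 fold change was 0.92 with an SE of 0.0585 (edgeR adjusted p = 8.8e-14). The gene lies on the minus strand of chromosome 17, from 50367857 to 50373214 (GRCh38, GENCODE 29).

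MRPS6, a protein of the small subunit platform, rose by as much. Its levels were 29.03, 27.5, 28.7 and 30.8 CPM in control and 54.2, 54.3, 56.3 and 54.9 CPM in knockdown libraries, with no overlap. The log2 fold change was 0.92 with an SE of 0.0355 (edgeR adjusted p = 2.74e-15). On chromosome 21, MRPS6 (34073224 to 34143034, plus strand) shares 273 bases of exon on the same strand with SLC5A3, a myo-inositol transporter gene that rose with a log2 fold change of 0.54. Reads from the shared exon could be assigned to either gene.

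The proteins that line or surround the polypeptide exit tunnel of the large subunit include MRPL22, MRPL23, MRPL24 and MRPL47, and they did not move together. MRPL23 read 42.0, 39.0, 43.0 and 38.0 CPM in control and 63.7, 59.8, 62.4 and 66.6 CPM in knockdown libraries, a log2 fold change of 0.64. MRPL22 read 26.1, 28.8, 28.8 and 28.7 CPM in control and 42.6, 40.1, 45.6 and 43.8 CPM in knockdown libraries, a log2 fold change of 0.61. Both sets were separate between the groups, with edgeR adjusted p of 1.06e-11 for MRPL23 and 8.82e-11 for MRPL22. MRPL24 rose less, from 102 ± 3.64 to 121 ± 3.57 CPM (SD, n = 4; log2 fold change 0.24). MRPL47 fell from 67.8 ± 4.59 to 50.5 ± 1.30 CPM, a log2 fold change of -0.43 (edgeR adjusted p = 1.32e-08). MRPL47 shares 124 bases of exon on opposite strands with ACTL6A, whose log2 fold change was 0.18.

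The stalk at the side of the large subunit, which recruits translation factors, holds MRPL10 and MRPL12, with MRPL11 at its base. MRPL11 rose from 57.2 ± 3.38 to 79.0 ± 3.32 CPM and MRPL10 from 19.2 ± 1.24 to 26.3 ± 2.52 CPM (SD, n = 4 each). Their log2 fold changes were 0.46 and 0.45. MRPL11 shares 119 bases of exon on opposite strands with PELI3, which fell by 0.75. MRPL12, which binds to MRPL10 in the stalk, went the other way, at 186, 180, 208 and 186 CPM in control and 147, 140, 169 and 156 CPM in knockdown libraries. Its groups did not overlap, and its log2 fold change was -0.31 (edgeR adjusted p = 0.000354).

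Other large subunit genes among the 10 largest rises were MRPL9, at 59.4 ± 0.978 and 85.2 ± 4.18 CPM in control and knockdown libraries, and MRPL14, at 40.1 ± 1.40 and 54.6 ± 4.63 CPM (SD, n = 4). MRPL14 sits at the face of the large subunit that meets the small one. Their log2 fold changes were 0.52 and 0.44. In the small subunit, MRPS16 had the highest mean count of all 78 members. It read 197, 215, 213 and 202 CPM in control and 290.0, 275, 303 and 295 CPM in knockdown libraries, a log2 fold change of 0.49 (edgeR adjusted p = 8.1e-12). MRPS12, a protein of the decoding centre, rose from 66.0 ± 5.39 to 92.1 ± 6.52 CPM, a log2 fold change of 0.48. It shares 349 bases of exon on opposite strands with SARS2, the mitochondrial seryl-tRNA synthetase gene, which rose by 0.63 on the log2 scale.

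**Figure D2:**
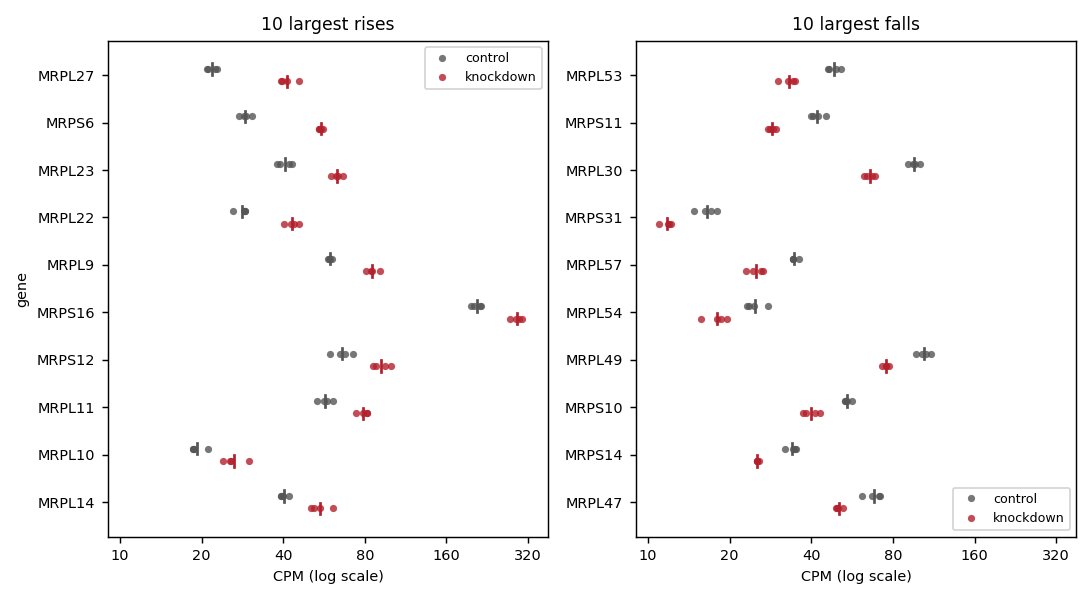
CPM on a log axis in each of the 4 control and 4 knockdown libraries for the 10 largest rises and the 10 largest falls among the 78 genes, with short lines at the group means. The groups are separate in all 20 genes, as the rule for naming them required, and the MRPL27 libraries sit near 22 CPM in control and 41 CPM in knockdown cells.

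The 3 largest falls were close to each other in size. MRPL53, a large subunit protein specific to mitochondria, read 46.4, 49.3, 51.4 and 46.2 CPM in control and 32.8, 30.2, 34.8 and 34.4 CPM in knockdown libraries. MRPS11, a protein of the small subunit platform, read 42.2, 39.7, 45.2 and 40.4 CPM in control and 28.99, 28.2, 29.6 and 27.6 CPM in knockdown libraries. MRPL30, a large subunit protein with a bacterial counterpart, read 90.9, 100.4, 95.1 and 96.6 CPM in control and 64.4, 62.5, 68.5 and 67.0 CPM in knockdown libraries. In each, every knockdown library lay below every control. All 3 log2 fold changes were -0.55, with SEs of 0.0593, 0.0469 and 0.0420. The edgeR adjusted p values were 7.31e-10 for MRPL53, 4.25e-10 for MRPS11 and 1.38e-11 for MRPL30. MRPL53 shares 608 bases of exon on the same strand with CCDC142, whose log2 fold change was -0.07 (edgeR adjusted p = 0.279). MRPL30 shares 564 and 380 bases on the same strand with coding genes without a symbol. Those averaged 16.4 and 5.6 counts, against 1784 for MRPL30. MRPS11 shares 516 bases on opposite strands with a gene without a symbol, which averaged 18.4 counts against 779 for MRPS11.

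The other small subunit genes among the 10 largest falls were MRPS31, MRPS10 and MRPS14. MRPS10 and MRPS14 belong to the head of the small subunit, which clasps the mRNA. MRPS31 fell from 16.5 ± 1.35 to 11.7 ± 0.532 CPM, MRPS10 from 54.1 ± 1.58 to 39.97 ± 2.67 CPM and MRPS14 from 34.1 ± 1.36 to 25.3 ± 0.209 CPM (SD, n = 4). Their log2 fold changes were -0.49, -0.44 and -0.43. MRPS14 shares 351 bases of exon on opposite strands with CACYBP, which had a mean of 5341 counts against 658 for MRPS14 and rose by 0.16 on the log2 scale. The table also held pseudogenes of mitochondrial ribosomal protein genes, the most counted of which was MRPS31P5, with a mean of 61.9 counts against 312 for MRPS31. Reads shared between MRPS31 and its copies make its value uncertain.

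The remaining large falls were in large subunit proteins specific to mitochondria. MRPL57 fell from 34.6 ± 0.912 to 24.99 ± 1.63 CPM, MRPL54 from 24.7 ± 2.01 to 17.96 ± 1.68 CPM and MRPL49 from 104 ± 5.55 to 75.4 ± 1.78 CPM (SD, n = 4). The log2 fold changes were -0.47, -0.46 and -0.46. MRPL49 shares exon sequence on opposite strands with FAU (282 bases) and SYVN1 (356 bases), and SYVN1 fell by 1.61 on the log2 scale.

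The levels of the members were compared per length of exon. The length joined the exons of all basic coding transcripts of a gene, not those of the transcript expressed. The order therefore depends partly on annotation: MRPS16, with the highest mean count, stood at 94.5 CPM per kb over 2634 bases. MRPL13 was highest, at 218 CPM per kb over all libraries, followed by MRPL12 at 167, MRPS24 at 154, MRPS34 at 143 and MRPL24 at 121. The order below MRPL13 differed between the groups: in knockdown libraries MRPS34 (151), MRPL12 (149.1) and MRPS24 (148.5) were close together, and in control libraries MRPL37 (112) stood just above MRPL24 (111). MRPL13 read 263, 271, 253 and 274 CPM in control and 218, 201, 215 and 195 CPM in knockdown libraries, without overlap, a log2 fold change of -0.35 (edgeR adjusted p = 7.97e-09). MRPS24, a small subunit head protein, read 125, 123, 136 and 120.2 CPM in control and 115, 113, 123 and 116 CPM in knockdown libraries. These groups overlapped, and the log2 fold change of -0.11 passed edgeR's threshold (adjusted p = 0.0196) but had an exact permutation p of 0.0857. It did not pass without control replicate 3 (-0.08), knockdown replicate 1 (-0.10) or knockdown replicate 2 (-0.09), nor with upper-quartile scaling (-0.05) or library totals alone (-0.03). MRPS34, a small subunit protein specific to mitochondria, had a log2 fold change of 0.16 (edgeR adjusted p = 0.00243) and an exact permutation p of 0.0571.

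The MRPS18 paralogues occupy different places in the ribosome: MRPS18C replaces the bacterial protein, MRPS18B is another small subunit protein and MRPS18A sits in the large subunit. MRPS18B read 88.6, 92.1, 92.1 and 89.5 CPM in control and 97.3, 97.7, 101 and 104 CPM in knockdown libraries. The groups were separate, with a log2 fold change of 0.14 (edgeR adjusted p = 0.00137). MRPS18C stood at 38.2 ± 1.18 and 37.2 ± 1.34 CPM, with a log2 fold change of -0.04 ± 0.0343 (SE) and an edgeR adjusted p of 0.483. With the regional shift (defined further on) removed, MRPS18C passed the threshold, at -0.15 (edgeR adjusted p = 0.00621). MRPS18A stood at 33.9 ± 2.75 and 30.7 ± 1.33 CPM, with overlapping groups and a log2 fold change of -0.14 (edgeR adjusted p = 0.0251, exact permutation p = 0.143). MRPS18A lost the edgeR call when control replicate 1 or 3 or knockdown replicate 1 or 2 was left out, at log2 fold changes from -0.14 to -0.11. It also lost it with DESeq2 (-0.15), upper-quartile scaling (-0.08) and library totals alone (-0.06).

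The 3 smallest differences were those of MRPL44, MRPS33 and MRPS2. MRPL44, a large subunit protein specific to mitochondria, stood at 39.3 ± 2.42 and 39.1 ± 1.60 CPM in control and knockdown libraries. MRPS33 stood at 33.9 ± 1.26 and 33.5 ± 0.899 CPM and MRPS2 at 75.8 ± 2.04 and 76.8 ± 3.57 CPM (SD, n = 4). Their groups overlapped, with edgeR adjusted p of 0.953, 0.746 and 0.702. With library totals alone MRPS2 passed the threshold, at a log2 fold change of 0.10 (edgeR adjusted p = 0.0251).

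Summed over genes, the 2 subunits differed from each other. The 78 members together took 5354, 5367, 5506 and 5375 CPM in control libraries and 5529, 5271, 5657 and 5504 CPM in knockdown libraries, which overlap. The knockdown mean was 102% of the control mean, or 108% when CPM was computed from library totals alone. Large subunit genes summed to 3377 ± 40.5 CPM in control and 3288 ± 95.1 CPM in knockdown libraries (SD, n = 4), which was 97.4% of the control, but 103% with library totals alone, so the direction of this sum depended on the scaling. Small subunit genes summed to 1997 ± 31.9 and 2165 ± 65.1 CPM, or 108% of the control, and 115% with library totals alone.

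The ratio of the small to the large subunit sum needs no scaling between libraries. It was 0.591, 0.588, 0.595 and 0.591 in control and 0.654, 0.656, 0.658 and 0.665 in knockdown libraries. Every knockdown library lay above every control, and the knockdown mean was 111% of the control mean. MRPS16, the most counted member, accounted for part of the difference: without it the ratio was 0.530 ± 0.00388 in control and 0.570 ± 0.00362 in knockdown libraries (SD, n = 4). These sums describe the members' RNA and carry no test. They were taken without removing the regional shift defined next. With that shift subtracted, the median log2 fold change was 0.080 for large and 0.068 for small subunit genes. The part of chromosomal position in the ratio was not tested.

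**Figure D3:**
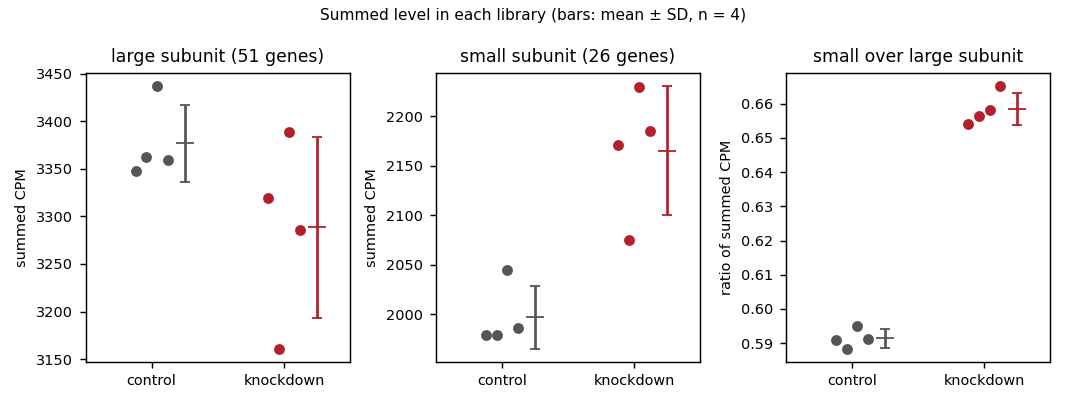
Summed CPM of the 51 large subunit genes and of the 26 small subunit genes, and the ratio of the sums, in each control and knockdown library; bars show the mean ± SD of 4 libraries, and the axes do not start at 0. The ratio lies between 0.588 and 0.595 in control and between 0.654 and 0.665 in knockdown libraries.

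The position of a gene on its chromosome went along with its change. For each member, a regional shift was taken as the median log2 fold change over the closest 50 tested coding genes, and it ran from -0.54 to 0.38. Across the 78 members the fold changes and regional shifts had a Pearson correlation of 0.39 and a Spearman correlation of 0.41. These are descriptions, since members on one chromosome share neighbours and all values come from the same 8 libraries. Of the 68 members past the threshold, 50 (73.5%) had the sign of their region, beside 63.6% of all 12561 genes past the threshold for which a shift could be computed. Subtracting the shift narrowed the SD across members only from 0.35 to 0.34.

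All 5 members on chromosome 5 were higher, with a median log2 fold change of 0.44. With the regional shift removed, MRPL36 and MRPS27 among them stood at -0.20 and -0.05 and MRPS30 at 0.06. Both members on chromosome 13 (MRPS31 and MRPL57), both on chromosome 15 (MRPS11 and MRPL46) and all 3 on chromosome 8, MRPL13 among them, were lower. Chromosomes with more members were mixed: 4 were higher and 3 lower on each of chromosomes 1 and 2, 5 and 3 on chromosome 17, 3 and 4 on chromosome 11, and 4 and 2 on chromosome 6. With the regional shift removed, the log2 fold changes were -0.14 for MRPS31, -0.03 for MRPL57, -0.11 for MRPS14, -0.07 for MRPL13 and 0.07 for MRPS34, and none of these 5 passed the threshold. The sign turned for MRPS24, to 0.17, and for MRPS18B, to -0.08. Other members stood against their region: 10 were higher in a lowered region and 8 lower in a raised one. MRPL23 rose by 0.64 on the log2 scale where the regional shift was -0.52, and MRPS6 rose where it was -0.11. MRPL30 and MRPL53 fell where it was 0.35 and 0.18. The 3 largest falls were therefore no longer alike once the shift was removed, at -0.90 for MRPL30, -0.73 for MRPL53 and -0.17 for MRPS11. Removal also moved several called rises by more than 1.5 times without ending the call. MRPL23, MRPL11 and MRPL24 became larger, at 1.17, 0.75 and 0.49. MRPL22, MRPS12, MRPS16 and MRPL10 became smaller, at 0.28, 0.21, 0.20 and 0.22. Among the falls, MRPS18A became larger, at -0.29, and MRPL49, MRPL47, MRPL54 and MRPL12 became smaller, at -0.29, -0.24, -0.19 and -0.15. Copy number and regional regulation were not tested.

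**Figure D4:**
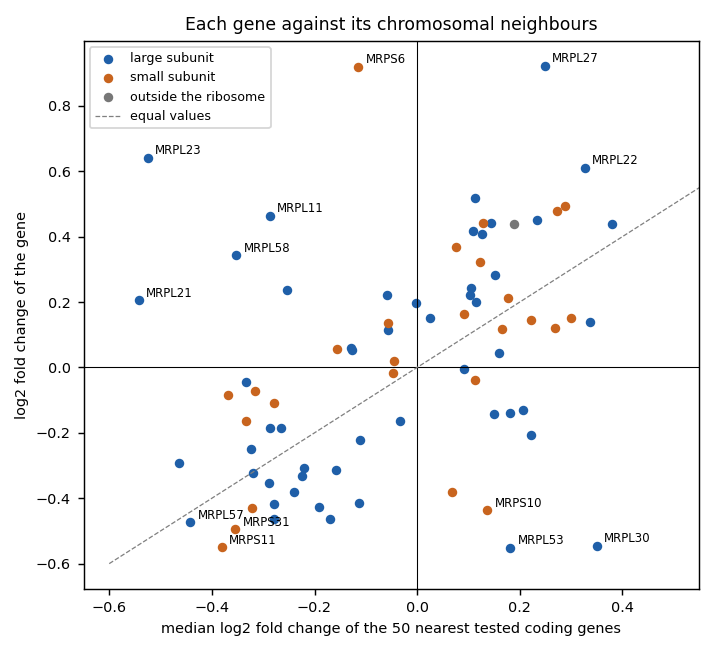
Log2 fold change of each of the 78 genes against its regional shift, the median over the closest 50 tested coding genes, coloured by subunit; the dashed line marks equal values. Most points share the sign of their region, and MRPL23, MRPL30 and MRPL53 lie on the side opposite to it.

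Members often had a neighbour reading away from them. A partner on the opposite strand whose start lay within 1000 bases, or overlapped by at most 200 bases, was found for 19 of 78 members (24.4%) and for 1504 of the 13278 tested coding genes (11.3%). Of the 20 member and partner entries, 18 had a tested partner. In 9 of these both genes passed the threshold, 8 in the same direction and 1, MRPL21 with IGHMBP2, in opposite directions. The 2 members MRPS11 and MRPL46 begin 34 bases apart and are each other's partner, so they count as 2 of the 8. Counted as distinct pairs, 7 of 8 (87.5%) had the same direction, beside 292 of 429 such pairs (68.1%) among all genes. MRPL46 fell from 28.0 ± 0.467 to 22.9 ± 1.70 CPM (SD, n = 4; log2 fold change -0.29), but stood at 0.17 with the regional shift removed.

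The start of MRPL27 lies 6 bases from that of EME1, a subunit of a DNA structure-specific endonuclease. EME1 rose with it, from 5.60 ± 0.594 to 13.2 ± 0.708 CPM (SD, n = 4; log2 fold change 1.24). MRPL47 and NDUFB5, a respiratory complex I gene, begin 36 bases apart and both fell, by 0.43 and 0.79 on the log2 scale. MRPL36 and NDUFS6, another complex I gene, begin 34 bases apart and both rose, by 0.14 and 0.60, although MRPL36 stood at -0.20 with the regional shift removed. Not every pair moved as one: MITD1, 21 bases from MRPL30, had a log2 fold change of 0.12 (edgeR adjusted p = 0.104), and ZNF189 fell by 2.25 beside MRPL50, whose own value was 0.06 (edgeR adjusted p = 0.361). The partners and members named in these pairs beyond MRPL27, MRPL30, MRPL47 and MRPS11 were chosen after their values were seen.

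Promoters of the members were read from RefSeq on GRCh38.p14, each covering 250 bases before and 50 after an annotated start. They matched 69 of the 78 genes, with 85 promoter entries. Words recognised by factors known for nuclear genes of mitochondrial proteins were searched on both strands: CCGGAAGT and CCGGAAGC for the ETS family that includes GABPA, AAGATGG and its longer form, followed by CGGC, for YY1, the palindromic NRF1 word in its exact form and with the fifth base free (which includes the exact form), and the E-box CACGTG, the word of MYC and other factors. Members held AAGATGG in 31.8% of entries, beside 5.84% of all 35116 promoters and 6.83% of those of tested coding genes. The share with the longer YY1 word was 11.8%, beside 0.849% and 1.65%. For CCGGAAGT it was 16.5%, beside 4.14% and 7.22%, and for CCGGAAGC 21.2%, beside 3.70% and 5.87%. NRF1 words were nearer the background, with the exact form in 1.18% beside 1.24% and 1.84%, and the form with a free base in 11.8% beside 5.78% and 9.51%. The E-box was in 10.6%, beside 7.26% and 9.19%.

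Each word was found in both rising and falling members, apart from the exact NRF1 form, which 1 member held. CCGGAAGT was in 4 higher and 8 lower genes (median log2 fold change -0.20) and CCGGAAGC in 9 higher and 7 lower genes (median 0.11), and of the 27 genes with either, 12 were higher and 13 lower. Of the 24 with AAGATGG, 10 were higher and 13 lower, and of the 18 with none of the 7 words, 7 were higher and 6 lower. The lines below show such words in both directions. They give 30 bases around ETS or YY1 words in those of the 10 largest rises and falls that have a single promoter entry, 5′ to 3′ on the strand of the gene, with the word in capitals; GCTTCCGG is CCGGAAGC read from the opposite strand. A match is a description of letters and not evidence of binding.
MRPL27, rose, 52 bases before the start (chr17:50373218-50373247, minus strand): ccacgcagggcCCGGAAGTagatctcctga
MRPL27, rose, 8 bases before the start (chr17:50373174-50373203, minus strand): acttttcgagaCCGGAAGTgagtgatcgaa
MRPL22, rose, 35 bases after the start (chr5:154941093-154941122, plus strand): gtagcgggagggcgaAAGATGGCGGCggca
MRPS16, rose, 4 bases after the start (chr10:73252622-73252651, minus strand): gcggatcatccGCTTCCGGagtcgaggttt
MRPL11, rose, 24 bases after the start (chr11:66438806-66438835, minus strand): acctctggcccAAGATGGtggcgcccagag
MRPL53, fell, 72 bases before the start (chr2:74472734-74472763, minus strand): gcagccggcggCCGGAAGTctatcccgcag
MRPL30, fell, 146 bases before the start (chr2:99181027-99181056, plus strand): gggtctgctgcGCTTCCGGgaagtggtcat
MRPS31, fell, 32 bases before the start (chr13:40771204-40771233, minus strand): aaggcgccaggCCGGAAGCggaagagaggg
MRPS10, fell, 22 bases before the start (chr6:42217865-42217894, minus strand): ccgctgtaaccCCGGAAGCaatcctgagag
MRPS10, fell, 9 bases after the start (chr6:42217832-42217861, minus strand): gggaccggcAAGATGGCGGCgcggacagcg

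MRPL27, with the largest rise, and MRPL53, with the largest fall, thus both carried CCGGAAGT upstream of their RefSeq starts. MRPL22 and MRPS10, which moved in opposite directions, both carried the longer YY1 word just after theirs. Some RefSeq starts differ from the GENCODE 29 gene. The MRPL53 word lies inside the longer GENCODE gene, which begins at 74473322. The MRPL11 start (66438848) lies inside a gene that begins at 66466738. The MRPS31 start (40771190) lies outside its gene, which begins at 40771173. MRPS16 held a further AAGATGG 222 bases before its start. Among genes with more than 1 promoter entry, not shown, MRPL47 held CCGGAAGT and AAGATGG, and MRPL49 and MRPS12 held AAGATGG. MRPS6 held none of the 7 words, and 88.2% of the bases before its RefSeq start (34073578) that lie outside annotated exons, shown next, were G or C. This RefSeq start is inside the longer GENCODE 29 gene, which begins at 34073224. MRPL54, which fell, also held none of them, and the same stretch of its promoter was 43.5% G or C.
MRPS6, rose (chr21:34073328-34073522, plus strand): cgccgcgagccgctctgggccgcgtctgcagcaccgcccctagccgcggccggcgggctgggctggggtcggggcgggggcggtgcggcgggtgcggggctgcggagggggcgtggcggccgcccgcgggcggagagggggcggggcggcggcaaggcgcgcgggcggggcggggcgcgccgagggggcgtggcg
MRPL54, fell (chr19:3762432-3762663, plus strand): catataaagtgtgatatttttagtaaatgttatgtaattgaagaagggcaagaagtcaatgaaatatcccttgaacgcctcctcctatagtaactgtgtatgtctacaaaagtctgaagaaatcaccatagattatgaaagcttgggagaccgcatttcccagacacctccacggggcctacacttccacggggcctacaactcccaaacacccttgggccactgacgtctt

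The genes for the same factors were measured in the list of biogenesis regulators. Of its 9 tested genes, 7 were higher and 1 lower, with a median log2 fold change of 0.36. Over all genes tested, 39.4% were higher and 37.7% lower. GABPA rose most, from 38.7 ± 4.01 to 74.6 ± 4.72 CPM (SD, n = 4; log2 fold change 0.95). MYC rose by 0.64, YY1 by 0.22 and NRF1 by 0.19 on the log2 scale. ESRRA, the estrogen-related receptor alpha, fell by 0.55. PPARGC1A, the tenth gene of the list, was under the filter on low counts.

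RNA of the mitochondrial genome, which the mitochondrial ribosome translates and from which its rRNAs come, was lower in knockdown libraries. Of 15 mitochondrial rRNAs and mRNAs, 13 were lower and none higher, with a median log2 fold change of -0.58. Beside this, 37.7% of all genes tested were lower and 39.4% higher. MT-ND3 fell from 803 ± 42.6 to 407 ± 15.01 CPM (SD, n = 4; log2 fold change -0.98), and MT-CO2 had the smallest fall, at -0.13. MT-ND1 and MT-CO3 did not pass the threshold, at -0.04 and 0.05; with library totals alone or upper-quartile scaling, 12 were lower and 1 higher. The rRNA of the small subunit, MT-RNR1, fell from 693 ± 32.5 to 413 ± 42.3 CPM, and that of the large subunit, MT-RNR2, from 2232 ± 67.5 to 1965 ± 90.4 CPM. The log2 fold changes of the 2 rRNAs were -0.75 and -0.18. The libraries followed an mRNA protocol, so rRNA levels describe what was left in them.

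Nuclear genes of mitochondrial gene expression moved in both directions, as the members did. The counts below stand beside 39.4% higher and 37.7% lower among all genes tested. TFAM, which packages mitochondrial DNA and starts its transcription, rose from 83.2 ± 5.16 to 177 ± 5.60 CPM (SD, n = 4; log2 fold change 1.09). It led the list of transcription and RNA processing genes, where 8 of 17 rows were higher and 6 lower, PRORP having 2 identifiers, and MTERF1 had the largest fall, at -0.40. Of 5 mitochondrial ribosomal proteins under other symbols, 3 were higher and 1 lower: CHCHD1, PTCD3 and GADD45GIP1 rose by 0.48, 0.45 and 0.35 on the log2 scale, DAP3 fell by 0.26, and AURKAIP1 stood at 0.04. Of 30 assembly and rRNA modification genes, 12 were higher and 12 lower, from MRM1, an rRNA methyltransferase, at 0.85 to RCC1L at -0.68. Of 15 translation factors, 8 were higher and 6 lower, with MTRFR at 1.13 and the release factor gene MTRF1 at -0.72. Of 22 tRNA charging genes, 11 were higher and 5 lower (12 and 3 with library totals alone), with YARS2 at 0.66 and CARS2 at -0.83.

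Cytosolic ribosomal protein genes, whose products form the ribosome outside mitochondria, had a similarly narrow spread. Of 79 tested, 40 were higher and 21 lower (49 and 13 with library totals alone), with a median log2 fold change of 0.09 and an SD of 0.27 across genes. Their shares were 50.6% higher and 26.6% lower, beside 39.4% and 37.7% of all genes tested. They ran from RPL19 at -0.59 to RPL9 at 0.87. Near-identical copies of these genes make single values uncertain.

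**Figure D5:**
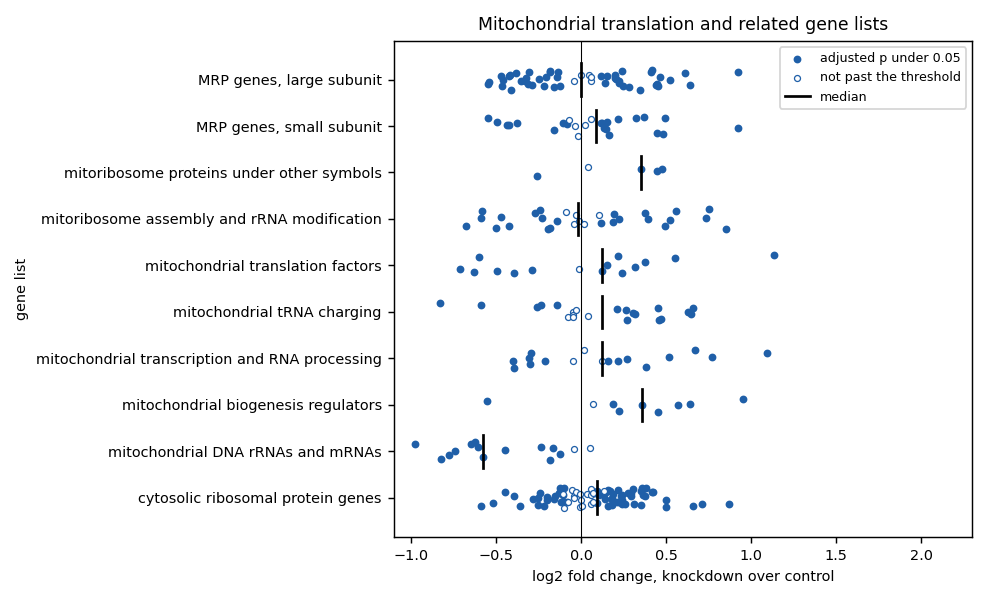
Log2 fold change, knockdown over control, of every tested gene in each list, with filled points past the threshold, open points not past it and a black line at the median of the list. The points of the mitochondrial DNA list lie below 0 except MT-CO3, while those of the other lists fall on both sides.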

How the data were processed

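RNA from 4 control and 4 FOXA1 knockdown samples of SKBR3 cells was sequenced as mRNA libraries with paired-end reads, per the labels' protocols. The authors deposited a table of counts per gene under Ensembl identifiers. The submitters' processing notes name hg38, FastQC, Salmon 1.9 and DESeq2 3.16, with no role for each. If Salmon made the table, its whole numbers may be rounded estimates. The annotation release and the use of strand are not given in the sources used here, so reads of overlapping genes may be mixed. Groups were taken from the sample titles.

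The count analysis used edgeR 4.0.16 in R 4.3.3. Low-count genes were removed by filterByExpr (minimum 10 counts, total 15), libraries were scaled by TMM, and groups were compared by the quasi-likelihood test with Benjamini-Hochberg adjustment over all 16430 genes and a threshold of 0.05. CPM values used library totals scaled by the TMM factors. Standard errors come from log2 CPM with 0.5 added to each count. Exact two-sided permutation tests used the 70 divisions of 8 libraries into 4 and 4. The members, classes and gene lists were chosen with earlier results of these data known. Named members were the 10 largest rises and 10 largest falls (adjusted p under 0.05, no overlap, mean of at least 50 counts), the MRPS18 paralogues, the 5 highest per length and the 3 smallest changes. In the other lists the largest rise and fall were named. In other cases the choice followed from roles or from the values seen. Positions and exon lengths come from GENCODE 29 on GRCh38.

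In simulated counts for 16430 genes, 47 of 100 genes with a log2 change of 0.25 and 76 of 100 with 0.5 were recovered, and 7 of 130 calls (5.38%) were false. Only those genes were changed, equally in both directions, and all genes had a common dispersion. In the real comparison 77.1% of genes passed the threshold, so these rates need not hold there. Alternatives were RLE, upper-quartile and no scaling, no filter and a mean of at least 50 counts, DESeq2 1.42.0, limma 3.58.1 (voom), a replicate block, removal of the regional shift, and leaving out each library. No 2 libraries of a group agreed within sampling noise.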

Additional observations from a re-analysis of the deposited data

Results flagged for a closer look

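In 7 of 70 groups of 4 values examined, 1 library lay far from the other 3 by Dixon's criterion, where chance alone gives about 3.5 (5%). The groups are not independent, since the sums include the single genes and all come from the same libraries. The 7 beside 3.5 is therefore a description and no test of an excess. MRPL22 was low in control replicate 1, at 26.06 CPM against 28.7 to 28.8 in the other controls. Control replicate 3 was high for MRPL10, at 21.08 CPM against 18.5 to 18.8, and for MRPL57, at 35.99 CPM against 34.1 to 34.3. MRPS14 was high in knockdown replicate 4, at 25.63 CPM against 25.2 in the others. Control replicate 3 also had the highest summed level of the controls, at 5506 CPM for all members, 3437 CPM for the large subunit and 2045 CPM for the small subunit, while its ratio of small to large subunit was 0.595 beside 0.588 to 0.591.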

How the results depend on the processing

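Of the 68 members past the threshold, 59 kept their direction and their call in all 16 alternatives other than removal of the regional shift, and 40 kept them in all 17. Removing the regional shift turned the sign of 14 members called before or after it, and ended 15 calls, 4 of them among the members it turned. The removal also added 6 calls, MRPS18C (-0.15) among them. It put 2 members past 2-fold, MRPL23 (1.17) and MRPS6 (1.03), as library totals alone did for MRPL27 and MRPS6. Among those named by the rule it turned MRPS18B to -0.078 and MRPS24 to 0.169. The other 12 were MRPL17 (0.10), MRPL20 (0.08), MRPL36 (-0.20), MRPL37 (0.07), MRPL41 (0.29), MRPL46 (0.17), MRPS17 (0.24), MRPS27 (-0.05), MRPS28 (0.17), MRPS35 (-0.15), MRPS7 (0.28) and MRPS9 (-0.15). With library totals alone, 7 calls ended and 5 were added, MRPS2 among them. In that setting 41 members were higher and 25 lower, and 5 small subunit genes were lower. The median log2 fold change was 0.133, and the difference in summed CPM was 405.6 in place of 89.5. Upper-quartile scaling put the median at 0.109. Leaving out 1 library gave 34 to 37 members higher and 29 to 32 lower, with 21 to 22 and 23 to 24 in the large subunit, 12 to 14 and 6 to 8 in the small subunit, and medians from 0.02 to 0.07. DESeq2 gave 35 higher and 30 lower. With a replicate block the counts were 35 and 31, and MRPL45 and MRPS7 lost their calls. Control and knockdown libraries of the same number had correlations of their deviations from -0.04 to 0.17. These were small, but 6 of 8 libraries correlated best with their own number. The labels do not say what the numbers mark, so the main test did not pair the samples and the block was an alternative. Whether libraries of the same number shared a batch was not tested. Members under the threshold may still differ, and by more than 1 standard error. Their standard errors were 0.0329 to 0.0537 for the 3 smallest differences and reached 0.0796 for MRPL1.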
